A study of Mus musculus with 104 samples.

Results

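The 5 genes described here encode the mouse Fc gamma receptors and the signalling chain that serves them: Fcgr1, Fcgr2b, Fcgr3, Fcgr4 and Fcer1g. They were chosen by symbol, and each was found once in every one of 8 deposited tables of 24940 genes, so 5 of 24940 genes are followed across 104 RNA-seq libraries in 47 groups. The study followed circulating monocytes as they refilled a liver emptied of Kupffer cells, which are the macrophages that reside in liver sinusoids, and exposed cultured bone marrow cells to the signals thought to act on them there.

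The first table held Ly6C-high blood monocytes from untreated C57BL/6J mice (4 libraries), repopulating liver macrophages from Clec4f-cre/Rosa26iDTR mice 12, 24, 48, 72, 168 and 336 h after diphtheria toxin (2, 3, 2, 2, 3 and 3 libraries), and Kupffer cells from mice of that same strain given PBS for 72 h (3 libraries). Clec4f drives Cre in Kupffer cells, so that the toxin receptor is placed on those cells, and monocytes differed from all liver groups in strain as well as in tissue. Another table held TIM4-positive Kupffer cells of Nr1h3 flox/flox mice, TIM4-positive and TIM4-negative cells of Nr1h3 flox/flox Clec4f-cre +/- mice, and 7-day bone marrow-derived macrophages (BMDMs) of Nr1h3 WT and Nr1h3 KO mice (2 libraries each). Nr1h3 encodes the sterol-sensing receptor LXR-alpha. A further table held TIM4-positive Kupffer cells of Smad4 flox/flox mice (2 libraries) and TIM4-positive (3) and TIM4-negative (2) cells of Smad4 flox/flox Clec4f-cre +/- mice. Smad4 encodes the SMAD shared by TGF-beta and BMP signalling. Untreated C57BL/6J liver cells sorted as STAB2-low, STAB2-intermediate or STAB2-high made up a table of 6 libraries.

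The cultures were 4-day BMDMs of Smad4 flox/flox mice (called control below) and their Smad4-deleted counterparts, each left untreated or given TGF-beta, the Notch ligand DLL4, DLL4 with DAPT, or DLL4 with TGF-beta for 24 h (2 libraries per group). DAPT inhibits gamma-secretase, which releases the active part of Notch. C57BL/6J BMDMs received DLL4, DMHCA (a synthetic sterol that activates LXR), DLL4 with TGF-beta, or all 3, after 4 days of culture for 24 h. Others, cultured for 6 days, received the DLL4 mixtures under titles that say 72 h (2 libraries per group). C57BL/6J bone marrow monocytes cultured for 2 days were exposed for 48 h to DLL4, desmosterol (a cholesterol precursor that activates LXR), DLL4 with TGF-beta, or all 3 (2 libraries per group). Finally, repopulating macrophages taken 24 h after toxin were from mice treated with LY411575, another gamma-secretase inhibitor (3 libraries, 2 controls) or antibodies to DLL1 and DLL4 (4 libraries, 2 controls), and all 11 of these libraries are named as fasted. A monocyte library is named as a pool in its title and was counted like the others. The labels do not say that replicate libraries stem from different mice or dishes. The p-values therefore reflect only how these samples scatter, and that scatter may be technical.

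The labels disagreed in places. The 72 h BMDMs carry a 24 h treatment label, the controls of the inhibitor and antibody experiments carry the name of the agent, and titles were followed in both cases. Smad4-deleted BMDMs carry the label Clec4f-cre, whereas LysM-cre is given in the design text. The LY411575 libraries are named female and the antibody libraries male in the column names, so sex and experiment cannot be told apart. Both experiments are labelled C57BL/6J, while the design text names Clec4f-Cre/DTR mice. Nr1h3 stood at 409 and 393 TPM in control Kupffer cells and at 391 and 422 TPM in the TIM4-positive cells labelled knockout, whose label this gene's total level therefore does not check. In BMDMs it was 41.9 and 43.3 TPM against 8.05 and 8.81 TPM, and Smad4 was 33.4 to 35.7 TPM in control and 13.7 to 21.5 TPM in Smad4-deleted Kupffer cells. Timd4, the TIM4 gene, followed the sort, at 5.22 to 5.84 TPM in TIM4-negative and 266 to 315 TPM in TIM4-positive cells labelled Nr1h3 knockout. Each library held 7830287 to 27776403 reads assigned to genes, as recovered from the deposited values.

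Fc gamma receptors bind the constant part of IgG and so let macrophages take up antibody-coated particles, a main task of Kupffer cells, which filter immune complexes from portal blood. In mice Fcgr1, Fcgr3 and Fcgr4 encode activating receptors whose binding (alpha) chains reach the surface with a dimer of the Fcer1g chain, and that chain carries the ITAM, the motif that Src-family kinases phosphorylate to recruit Syk. Fcgr2b encodes the inhibitory receptor, which carries an ITIM of its own and recruits the lipid phosphatase SHIP1. Fcgr1 binds monomeric IgG2a with high affinity, Fcgr3 binds complexed IgG1 and IgG2 with low affinity, and Fcgr4 binds IgG2a and IgG2b. The balance of the activating receptors against Fcgr2b sets the threshold of a cell for immune complexes. In liver, Fcgr2b is also abundant in sinusoidal endothelium, where it clears small immune complexes.

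Fcgr1 lies on mouse chromosome 3 (mm10 chr3:96282909-96293969, minus strand) and the other 4 genes on chromosome 1, as chr1:170960559-170976071 (Fcgr2b, minus), chr1:171018926-171029761 (Fcgr4, plus), chr1:171051169-171059403 (Fcgr3, minus) and chr1:171229572-171234349 (Fcer1g, minus). The 2 opposing signalling motifs are shown as the coding stretches that hold them, from GENCODE M21 transcripts (GRCm38), with no letter capitalised because the whole stretch is the motif. The first is coding bases 193 to 237 of Fcer1g and the second coding bases 949 to 966 of Fcgr2b.
Fcer1g ITAM: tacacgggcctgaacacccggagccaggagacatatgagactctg
Fcgr2b ITIM: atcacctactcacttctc
The activating receptors depend on the first sequence and the inhibitory receptor carries the second, which is why the ratio of their transcripts is followed below.

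Fcgr2b and Fcgr3 also share sequence, which bears on how surely their reads can be told apart. Their coding sequences are 86.9% identical over 789 aligned bases, and 129 bases in a row are the same in both (coding bases 278 to 406 of Fcgr2b and 263 to 391 of Fcgr3).
Shared by Fcgr2b and Fcgr3: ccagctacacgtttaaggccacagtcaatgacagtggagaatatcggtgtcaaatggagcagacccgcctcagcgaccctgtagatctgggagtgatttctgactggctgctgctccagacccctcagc
Of 1298 stretches of 50 bases in the Fcgr3 transcript, 166 (12.8%) also occur in Fcgr2b, and no other pair of the 5 transcripts shares one. Reads within the shared run cannot be assigned surely to either gene, so the low levels of one beside high levels of the other are uncertain to that extent. The table of sorted STAB2 cells and that of the Smad4 BMDMs list another Fcgr2b transcript (1396 bases against 1536) and another Fcgr3 transcript (1334 against 1346) than the other tables. All genes were tested within tables only, because the tables were deposited separately. For these 2 genes, ranges or ratios set side by side across tables also carry that difference in length.

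The promoters of Fcgr4 and Fcgr2b are shown because these 2 transcripts moved in opposite directions in the same cells (below). Both windows hold the 250 bases before the RefSeq start (GRCm38.p6), chr1:170976072-170976321 on the minus strand for Fcgr2b and chr1:171018676-171018925 on the plus strand for Fcgr4, and capitals mark a match to a searched motif.
Fcgr4 promoter: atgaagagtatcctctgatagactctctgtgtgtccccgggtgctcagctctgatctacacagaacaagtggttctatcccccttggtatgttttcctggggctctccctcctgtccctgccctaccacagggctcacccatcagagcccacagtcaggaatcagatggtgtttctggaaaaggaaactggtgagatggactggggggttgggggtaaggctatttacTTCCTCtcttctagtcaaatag
Fcgr2b promoter: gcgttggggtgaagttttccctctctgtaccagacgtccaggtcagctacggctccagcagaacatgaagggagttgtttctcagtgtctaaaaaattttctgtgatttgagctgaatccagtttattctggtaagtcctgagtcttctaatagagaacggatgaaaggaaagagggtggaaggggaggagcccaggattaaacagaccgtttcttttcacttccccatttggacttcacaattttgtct
Results of a search on both strands are given for GAGGAA, the core bound by the macrophage factor PU.1, GTGGGAA (RBPJ, the DNA-binding partner of Notch), and the SMAD-bound GTCTAGAC and CAGACA. These 4 occur in 23.1%, 5.41%, 0.174% and 17.1% of 27025 promoter windows of this length. The PU.1 core lay on the opposite strand 22 bases before the start of Fcgr4, 55 before that of Fcgr1 and 6 before that of Fcgr3. The windows of Fcgr2b and Fcer1g held none of these 4, which says nothing about the factors.

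In TPM, which counts transcripts relative to all transcripts of a library and is a scale per length on which genes of 1 library can be compared, Fcer1g was the most abundant of the 5. Outside the STAB2 sort (98 libraries) it ranged from 863 to 1813 TPM with a median of 1286. Fcgr3 followed at 237 to 1152 TPM (median 724), whereas Fcgr1 ran from 13.3 to 265 TPM (median 89.5), Fcgr4 from 9.39 to 880 TPM (median 48.8) and Fcgr2b from 6.43 to 551 TPM (median 60.9). The common chain and Fcgr3 were thus high in every myeloid library, and the widest ranges belonged to Fcgr4 and Fcgr2b. Differences below are on the log2(TPM + 1) scale with their standard error, and a gene was called changed when its adjusted p from limma was under 0.05 and the difference at least 2-fold. Over 46 comparisons, which include 3 differences between responses added after the data were seen, 226 tests of the 5 genes gave 32 calls (14.2%), beside 5.98% of all tests of all genes over the same comparisons, where the share ran from 0% to 36.5%. Fcgr2b was called in 20 of 46 comparisons (10 higher, 10 lower), Fcgr4 in 8 of 44 (6 higher, 2 lower), Fcgr1 in 2 of 44, Fcgr3 in 2 of 46 and Fcer1g in 0 of 46. Several comparisons share an untreated, DLL4 or Kupffer cell group, so their results are not independent of each other.

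Kupffer cells and the monocytes that can replace them differed above all in Fcgr4 and Fcgr2b, which moved in opposite directions. Fcgr4 was 21.0, 27.5, 40.5 and 26.4 TPM in the 4 monocyte libraries and 617, 636 and 642 TPM in the 3 Kupffer cell libraries, a log2 difference of 4.44 ± 0.19 (adjusted p = 4.4e-13). Fcgr2b was 289, 276, 308 and 311 TPM in monocytes and 51.0, 44.0 and 28.9 TPM in Kupffer cells, a difference of -2.85 ± 0.22 (adjusted p = 1.7e-09). No monocyte library overlapped a Kupffer cell library in either gene. In this comparison 35.1% of the 11373 genes tested were called, so a call by itself was common.

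The other activating receptors were higher in Kupffer cells by less than 2-fold. Fcgr3 was 429, 475, 467 and 476 TPM in monocytes against 740, 940 and 964 TPM in Kupffer cells (log2 difference 0.92 ± 0.10, adjusted p = 2.9e-07). Without the first Kupffer cell library the difference was 1.04, which met the threshold. By limma-voom on recovered reads the Fcgr3 difference was 1.21, but that fit also moved the median over all genes upwards (last paragraph). Fcgr1, the high-affinity receptor, was 64.5, 104, 86.9 and 103 TPM against 125, 136 and 137 TPM (0.58 ± 0.13, adjusted p = 0.00047). The shared chain Fcer1g was lower in Kupffer cells, at 1010 to 1206 TPM against 1333 to 1414 TPM in monocytes (-0.34 ± 0.08, adjusted p = 0.0013), so more alpha chain transcript faced less of the chain that carries it. TPM of Fcer1g per TPM of summed Fcgr1, Fcgr3 and Fcgr4 was 2.20 to 2.61 in monocytes and 0.579 to 0.814 in Kupffer cells. After quantile normalization the Fcer1g difference was -1.09, past the 2-fold threshold.

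**Figure D1:**
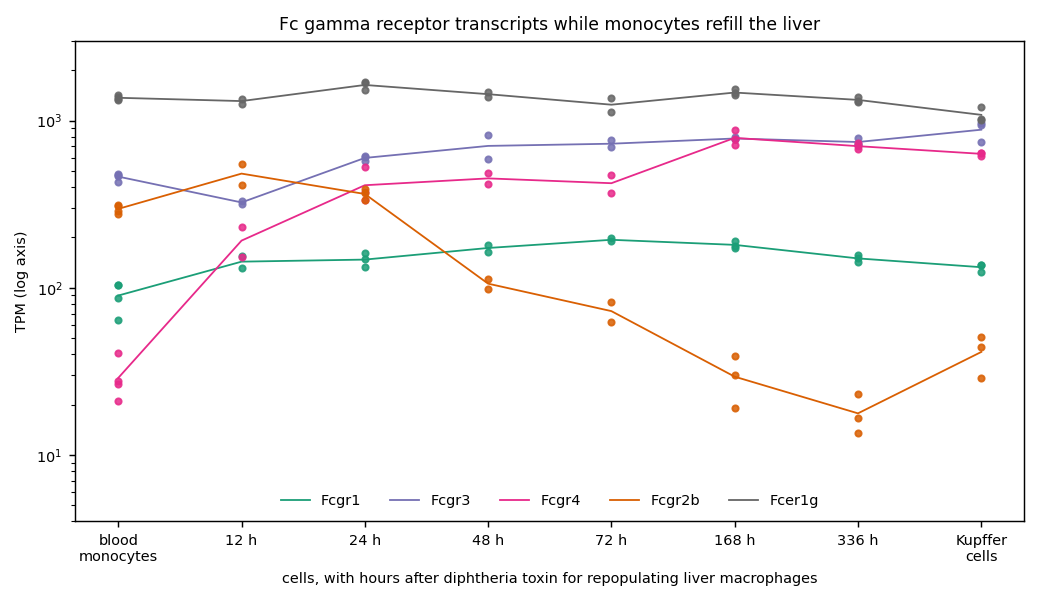
TPM (log axis) of the 5 genes in each library of the first table (points) with the group means joined by lines, from blood monocytes through the hours after diphtheria toxin to control Kupffer cells, which are a separate group and not a later time. Fcgr4 lies between 21.0 and 40.5 TPM in monocytes and between 617 and 642 TPM in Kupffer cells, while Fcgr2b goes from 276 to 311 TPM in monocytes to 28.9 to 51.0 TPM in Kupffer cells.

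The time course showed that Fcgr4 came first and the loss of Fcgr2b later. Within 12 h Fcgr4 stood at 152 and 231 TPM, 2.70 ± 0.21 log2 units above monocytes (adjusted p = 1.4e-08; 25.2% of genes called). It reached 371, 334 and 525 TPM at 24 h, 1.10 ± 0.22 above 12 h (adjusted p = 0.0017; 6.16% called). This second step was 0.80 without the first 12 h library and 0.91 without the third 24 h library, both under 2-fold. Fcgr4 was 484 and 417 TPM at 48 h, 475 and 369 TPM at 72 h and 880, 710 and 772 TPM at 168 h, where the difference from 72 h was 0.90 ± 0.22 (adjusted p = 0.0049; 1.09 without the first 72 h library). At 336 h it was 733, 673 and 702 TPM, above all 3 Kupffer cell libraries by 0.15 ± 0.20 log2 units (adjusted p = 0.62).

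Fcgr2b took another course. It was 551 and 411 TPM at 12 h, above every monocyte library (0.69 ± 0.25, adjusted p = 0.022, under 2-fold), and 366, 334 and 391 TPM at 24 h. It then fell to 113 and 98.1 TPM at 48 h (-1.77 ± 0.26, adjusted p = 0.00014; 4.26% of genes called between 24 and 48 h). At 72 h it was 82.3 and 62.6 TPM, a step in which none of the 5 genes was called (0 also by limma-voom and 0 at an unadjusted p under 0.05; 0.422% of genes called). By 168 h it had fallen again to 39.0, 19.1 and 30.1 TPM (-1.32 ± 0.26, adjusted p = 0.0009; 8.15% called).

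At 336 h Fcgr2b was 23.0, 13.5 and 16.7 TPM, and none of the 5 genes was called against 168 h (0 by limma-voom, 1 at an unadjusted p under 0.05, namely Fcgr2b at -0.67 ± 0.23; 0.0703% called). These cells lay under the control Kupffer cells for Fcgr2b by -1.17 ± 0.23 (adjusted p = 0.0022), and Fcgr2b was the 1 gene of the 5 called in a comparison that called 3.82% of genes. Without the second 336 h library that difference was -0.999, just short of 2-fold. The 24 h macrophages also had their 1 call against Kupffer cells in Fcgr2b, by 3.14 ± 0.23 (adjusted p = 5.9e-09; 14.7% called). Groups of adjacent mean level did not overlap for Fcgr2b from the highest group, 12 h, down to 72 h, whereas the libraries of Kupffer cells and 168 h, and those of 168 and 336 h, overlapped.

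Fcgr3 and Fcgr1 differed by smaller amounts between times. Fcgr3 was 317.5 and 330 TPM at 12 h, below every monocyte library (-0.51 ± 0.12, adjusted p = 0.0011), and was 601, 575 and 616 TPM at 24 h, 0.88 ± 0.12 above 12 h (adjusted p = 7e-05), both under 2-fold. From 48 h on it ranged from 590 to 820 TPM. Fcgr1 was highest at 72 h, at 197 and 190 TPM, and was 157, 142 and 150 TPM at 336 h. No step in these 2 genes passed the threshold, and Fcer1g stayed between 1010 and 1692 TPM in all 22 libraries. In order of mean level Fcer1g was highest at 24 h and lowest in Kupffer cells, and the libraries of every pair of neighbours in that order overlapped. Fcgr3 was highest in Kupffer cells and lowest at 12 h, with monocytes next above 12 h, and neither of these last 2 groups overlapped its neighbours.

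Read as a mixture, the 4 alpha chain transcripts turned over. Fcgr2b made up 31.2% to 36.0% of their summed TPM in monocytes, 1.63% to 3.33% in Kupffer cells and 0.832% to 1.40% at 336 h. Fcgr4 went from 2.61% to 4.49% in monocytes to 36.2% to 40.3% in Kupffer cells, and Fcgr3 from 51.7% to 53.8% through 27.5% to 29.3% at 12 h to 48.3% to 54.4% in Kupffer cells. The summed level was 804 to 917 TPM in monocytes and 1533 to 1772 TPM in Kupffer cells.

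**Figure D2:**
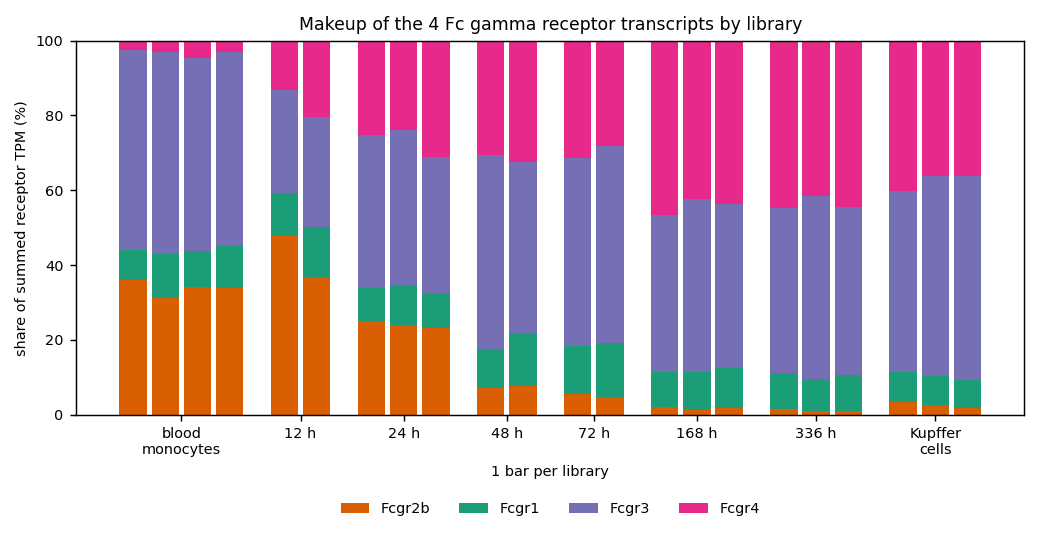
Share (%) of the summed TPM of the 4 alpha chain genes in each library of the first table, 1 bar per library. The share of Fcgr2b is 31.2% to 36.0% in monocytes and 1.63% to 3.33% in Kupffer cells, and that of Fcgr4 is 2.61% to 4.49% and 36.2% to 40.3%.

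The ratio of activating to inhibitory transcript, (Fcgr1 + Fcgr3 + Fcgr4) over Fcgr2b in TPM, summarised this. It was 1.78 to 2.20 in monocytes, 1.09 to 1.74 at 12 h, 3.02 to 3.33 at 24 h, 12.1 to 13.0 at 48 h and 17.4 to 19.9 at 72 h. It reached 47.4 to 87.2 at 168 h and 70.2 to 119 at 336 h, against 29.1 to 60.3 in Kupffer cells. The log2 ratio was 0.97 ± 0.13 (SD, n = 4) in monocytes and 5.35 ± 0.53 (SD, n = 3) in Kupffer cells. The difference was 4.38 ± 0.31 (SE), with p = 0.0286 in an exact two-sided permutation test, the smallest that the 35 arrangements can give. Since monocytes and Kupffer cells did not overlap in Fcgr1, Fcgr3, Fcgr4 or Fcgr2b, this ratio had to separate them. The p therefore adds nothing to the results of the single genes. Leaving out 1 library gave differences of 4.10 to 4.63, with p of 0.067 to 0.1 in the same test. These are again the smallest p that the remaining libraries can give. Transcript ratios do not give receptor numbers at the surface, which were not measured.

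Endothelial transcripts were present in the liver libraries and are given beside Fcgr2b, which endothelium also expresses. The 9 sinusoidal endothelial markers (Stab2, Clec4g, Oit3, Kdr, Ptprb, Egfl7, Tek, Ehd3 and Gpr182) summed to 0.883 to 1.47 TPM in monocytes, with Ptprb and Egfl7 at 0, to 331 to 676 TPM at 12 h, 131 to 159.4 TPM at 336 h and 267 to 385 TPM in Kupffer cells. Single markers took different courses. Stab2, a scavenger receptor of these endothelial cells, had mean levels of 35.2 TPM at 12 h, 21.4 TPM at 48 h, 61.9 TPM at 336 h and 110.4 TPM in Kupffer cells, opposite in direction to Fcgr2b between 48 and 336 h, whereas Clec4g, a lectin of the same cells, had means of 151.4, 67.2, 25.2 and 65.5 TPM. Clec4g was at most 0.597 TPM in monocytes, where Fcgr2b was 276 to 311 TPM. The TPM of Fcgr2b per TPM of Clec4g was 2.74 to 4.06 at 12 h, 2.09 to 7.67 at 24 h, 1.41 to 1.82 at 48 h and 0.757 to 0.779 at 72 h. From then on it was 0.739 to 0.942 at 168 h, 0.570 to 0.795 at 336 h, 0.585 to 0.683 in Kupffer cells and 0.621 to 0.742 in the 3 Kupffer cell groups of the Nr1h3 table. In the STAB2-sorted endothelial libraries, whose Fcgr2b transcript model is another one, it was 0.604 to 0.976. The ratio to Clec4g in the late liver groups thus overlapped that of sorted endothelium. The ratio to Stab2 did so in only some of these groups. The TPM of Fcgr2b per TPM of Stab2 was 2.24 to 5.90 in the sorted libraries. Below that range it was 0.379 to 0.776 at 168 h, 0.215 to 0.359 at 336 h and 0.283 to 0.439 in Kupffer cells. Control Kupffer cells of the Nr1h3 table were below it too, at 0.573 to 0.615. The 72 h group overlapped that range with its first library (2.33) and not with its second (1.40). Cells labelled Nr1h3 knockout lay inside it (TIM4-positive 3.39 to 3.66, TIM4-negative 3.35 to 3.42). So did the 48 h group, at 4.37 to 5.78, whose ratio to Clec4g (1.41 to 1.82) was above that of the sorted libraries. At 48 h and in the groups below the Stab2 range the 2 markers give different readings. The part of endothelial RNA in the Fcgr2b level of the liver groups was not tested. In bulk libraries fewer cells that express a gene and less RNA per cell cannot be told apart.

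**Figure D3:**
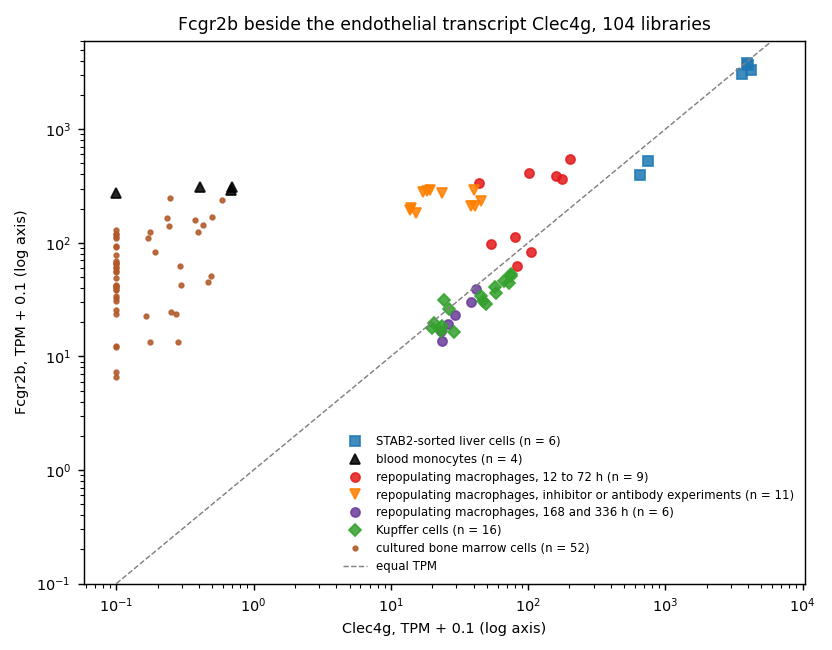
Fcgr2b against the endothelial transcript Clec4g in all 104 libraries, both in TPM plus 0.1 on log axes, with a dashed line at equal TPM. Kupffer cells and macrophages at 168 and 336 h lie along the line beside the STAB2-sorted cells, with 0.565 to 1.28 TPM of Fcgr2b per TPM of Clec4g, while monocytes and cultures lie far above it.

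Markers of other cells that use these receptors were as follows. The 6 B cell markers in the table (Cd79b among them; B cells express Fcgr2b) summed to 10.6 to 18.7 TPM in monocytes and 41.4 to 78.9 TPM in Kupffer cells, opposite in direction to Fcgr2b. The 9 neutrophil markers summed to 120 to 293 TPM in monocytes, up to 536 TPM in 1 library at 24 h and 7.14 to 49.6 TPM in Kupffer cells. NK cell markers, of a cell type that uses Fcgr3, summed to 5.32 to 13.0 TPM in monocytes and 23.9 to 87.2 TPM in Kupffer cells, and mast cell and basophil markers to at most 12.3 TPM anywhere in this table, with Fcer1a at 0 in Kupffer cells. The 8 Kupffer cell markers summed to 2.23 to 2.94 TPM in monocytes, with Clec4f and Marco at 0, and to 15722 to 17687 TPM in Kupffer cells. The part of these cells in the results was not tested.

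Other genes of the pathway were taken from lists. Of 22 genes of activating Fc receptor signalling, all tested, 1 was higher and 10 were lower in Kupffer cells than in monocytes, where 35.1% of all genes were called, with a median log2 difference of -0.76 against -0.06 over all genes. Src, a kinase that phosphorylates ITAMs, was higher by 3.01 ± 0.18, and Lat2, an adaptor, Pik3cg, a PI3-kinase subunit, and Plcg2, the phospholipase downstream of Syk, were lower by -4.33 ± 0.25, -2.44 ± 0.10 and -2.07 ± 0.09. Of 14 tested genes of inhibitory signalling (15 listed), 4 were higher and 1 was lower, close to the share of all genes called, with a median of -0.23. The adaptor Dok2 was higher by 3.27 ± 0.19, Siglece, an ITIM-bearing lectin, by 3.10 ± 0.21 and the SHIP2 gene Inppl1 by 1.53 ± 0.09, and Lilrb4a, an ITIM receptor, was lower by -1.16 ± 0.15. Among 7 tested of 11 other Fc and IgG-handling receptors, 4 were higher and 1 was lower. Fcgrt, the neonatal Fc receptor that recycles IgG, was higher by 4.18 ± 0.13, at a mean of 529 TPM in Kupffer cells against 28.7 TPM in monocytes. Among 5 tested of 8 receptors that pair with the Fcer1g chain, 3 were higher, led by Lilra5 (5.84 ± 0.22) and Clec4n, which encodes Dectin-2 (4.11 ± 0.19), and Clec4e, which encodes Mincle, was lower by -5.31 ± 0.33.

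The genes most like each of the 5 over the 22 libraries of the first table were ranked by Pearson r on log2(TPM + 1) among 7020 genes with a mean of at least 10 TPM. Fcgr4 followed St3gal5, C1qa and Rasgef1b (r = 0.99 each), of which C1qa encodes a chain of complement C1q. Fcgr2b followed Pcid2 (0.96), Ptafr (0.95) and Tgfb1 (0.95), and Fcgr3 followed Fam234a, Pcyox1 and Siae (0.95 each). Fcgr1 was nearest to Ehd1 (0.91), Cox5a (0.90) and Itpr3 (0.90), and Fcer1g to Clec4a2 (0.88), Tmsb4x (0.74) and Lst1 (0.74). Among the 5 genes r was -0.67 between Fcgr2b and Fcgr4, -0.80 between Fcgr2b and Fcgr3, and 0.82 between Fcgr1 and Fcgr4. These values describe 22 libraries that share groups, tissue and depth, and which groups dominate them was not tested.

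Kupffer cells of the Nr1h3 table had the same profile, and BMDMs did not. Control Kupffer cells had Fcgr4 at 516 and 527 TPM, Fcgr3 at 733 and 786 TPM, Fcgr1 at 169 and 147 TPM and Fcgr2b at 30.7 and 33.9 TPM. Wild-type BMDMs had 24.8 and 30.7, 260 and 265, 68.0 and 69.7, and 41.6 and 41.03 TPM of the same genes in the same order. The 3 activating receptors were called higher in Kupffer cells, Fcgr4 by 4.19 ± 0.09 (adjusted p = 1.2e-09), Fcgr3 by 1.53 ± 0.06 (adjusted p = 3.8e-08) and Fcgr1 by 1.18 ± 0.07 (adjusted p = 6.5e-07), where 36.5% of genes were called. Fcgr2b differed by -0.35 ± 0.14, and Fcer1g was 1164 and 1049 TPM against 1118 and 1105 TPM. Of 22 activating signalling genes 5 were higher and 2 were lower in Kupffer cells (median 0.38 against 0.05 over all genes), with Fgr at 3.28 and Lat2 at -6.45, and Fcgrt was higher by 5.55. Kupffer cells and BMDMs differ in origin, tissue and culture together.

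Neither deletion was followed by a called change of any of the 5 genes in Kupffer cells. In TIM4-positive cells labelled Nr1h3 knockout Fcgr4 was 718 and 692 TPM against 516 and 527 TPM in controls (0.44 ± 0.09, adjusted p = 0.011), and Fcgr2b was 53.1 and 40.9 TPM against 30.7 and 33.9 TPM (0.52 ± 0.14, adjusted p = 0.027). These groups did not overlap, but both differences were under 2-fold, and 2.86% of genes were called (0 of the 5 genes, 0 by limma-voom, 4 at an unadjusted p under 0.05). Clec4g was 57.1 and 74.3 TPM in these cells and 45.6 and 46.7 TPM in controls, so that Fcgr2b per Clec4g was 0.714 to 0.715 and 0.657 to 0.742. Stab2 went the other way, at 11.2 and 15.6 TPM against 53.5 and 55.1 TPM, so that Fcgr2b per Stab2 was 3.39 to 3.66 against 0.573 to 0.615. The part of endothelial RNA in this Fcgr2b difference was not tested. TIM4-negative cells of the same mice had Fcgr4 at 775 and 719 TPM and Fcgr2b at 46.1 and 36.3 TPM. None of the 5 genes was called between TIM4-negative and TIM4-positive cells (0 by limma-voom, 0 at an unadjusted p under 0.05; 0.597% called). None was called between Nr1h3 knockout and wild-type BMDMs (0 by limma-voom, 1 at an unadjusted p under 0.05; 0.417% called), where Fcgr1 was 84.9 and 79.0 TPM against 68.0 and 69.7 TPM.

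In Smad4-deleted TIM4-positive Kupffer cells Fcgr3 was 1139, 911 and 855 TPM against 676 and 721 TPM in controls, without overlap (0.46 ± 0.15, adjusted p = 0.25). Fcgr4 was 627, 397 and 432 TPM against 563 and 560 TPM, with the controls inside the range of the deleted cells. Fcgr2b was low in both, at 16.3, 31.1 and 25.9 TPM against 17.7 and 16.7 TPM. None of the 5 genes was called (0 by limma-voom, 1 at an unadjusted p under 0.05; 0.965% called). None was called between TIM4-negative and TIM4-positive Smad4-deleted cells either (0 by limma-voom, 0 at an unadjusted p under 0.05; 0.0503% called). The first library of each of these 2 groups carries the same tag in its title, which the labels do not explain, and these 2 libraries held the highest Fcgr4 of the deleted cells, at 627 and 703 TPM against 397 to 485 TPM in the rest. The test treated them as unrelated. With 2 or 3 libraries per group, differences under 2-fold such as that of Fcgr3 were not separated from the spread here.

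Sorted liver endothelium carried 1 of the receptors and little of the rest. Fcgr2b was 3836 and 3639 TPM in STAB2-high cells, 3288 and 3031 TPM in STAB2-intermediate and 526 and 395 TPM in STAB2-low cells, of which the first 2 groups held the highest levels of all 47 groups, on another transcript length than most tables. The level in STAB2-low cells was below that in STAB2-high cells by -3.03 ± 0.16 (adjusted p = 8.4e-05; 13.6% of 10576 genes called). With no filter on low values the same difference had an adjusted p of 0.075 and was not called. The STAB2-low libraries carry another library date than the rest, so date and sort cannot be told apart. Between STAB2-intermediate and STAB2-high cells Fcgr2b differed by -0.24 ± 0.16 (adjusted p = 0.73), with both intermediate libraries below both high ones, and none of the 3 genes tested was called (0 by limma-voom, 0 at an unadjusted p under 0.05; 0.00946% called).

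The activating alpha chains were near the floor there, with Fcgr3 at 2.29 to 6.78 TPM, Fcgr4 at 2.21 to 4.44 TPM and Fcgr1 at 0.382 to 1.08 TPM, and the last 2 did not reach the expression filter. Fcer1g was 48.6 to 114 TPM, against at least 863 TPM in all 98 other libraries. The 8 macrophage markers summed to 181 to 413 TPM in these cells and to 19043 to 21020 TPM in the Kupffer cells of the first table, and the endothelial markers to 6603 to 17028 TPM. Of the summed TPM of the 4 alpha chains, Fcgr2b made up 99.8% in each STAB2-high library.

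In culture DLL4 raised Fcgr2b in the 4 cultures that received it for 24 or 48 h. In control BMDMs Fcgr2b was 7.17 and 6.43 TPM untreated and 30.6 and 42.6 TPM with DLL4 (2.25 ± 0.23, adjusted p = 3.7e-06; 4.06% called). Smad4-deleted BMDMs went from 24.3 and 22.8 TPM to 110 and 124 TPM (2.26 ± 0.23, adjusted p = 4e-06; 3.39% called), and the responses of both genotypes differed by 0.01 ± 0.32. No gene of all 10267 was called in that difference (0%), and of the 5 genes 0 were called by limma-voom and 1 had an unadjusted p under 0.05. C57BL/6J BMDMs at 24 h went from 23.5 and 25.6 TPM to 54.7 and 56.8 TPM (1.15 ± 0.07, adjusted p = 9.1e-08; 2.75% called). Bone marrow monocytes went from 77.6 and 69.4 TPM to 239 and 249 TPM in 48 h (1.72 ± 0.06, adjusted p = 4.6e-09; 19.5% called). Treated and untreated libraries did not overlap in any of these. The endothelial marker Clec4g was at most 0.49 TPM in all cultures, and the part of endothelial RNA in these Fcgr2b levels was not tested.

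DAPT lowered the DLL4-treated level. Fcgr2b was 13.4 and 13.3 TPM with DLL4 and DAPT in control BMDMs, -1.37 ± 0.23 from DLL4 alone (adjusted p = 0.00055; 2.09% called). It was 38.1 and 41.3 TPM in Smad4-deleted BMDMs (-1.53 ± 0.23, adjusted p = 0.00022; 1.82% called). In both genotypes these levels were above those of untreated cells without overlap, a difference that was not tested. Fcgr3 and Fcgr4 also stood lower with DAPT in both genotypes, with differences from -0.80 to -0.49 log2 units, under 2-fold. In log2 units the ratio of activating to inhibitory transcript in control BMDMs was 6.43 ± 0.03 untreated, 4.70 ± 0.26 with DLL4, 5.68 ± 0.04 with DAPT added and 3.31 ± 0.23 with TGF-beta added (SD, n = 2 each), so each of these treated groups held relatively more Fcgr2b than untreated cells.

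**Figure D4:**
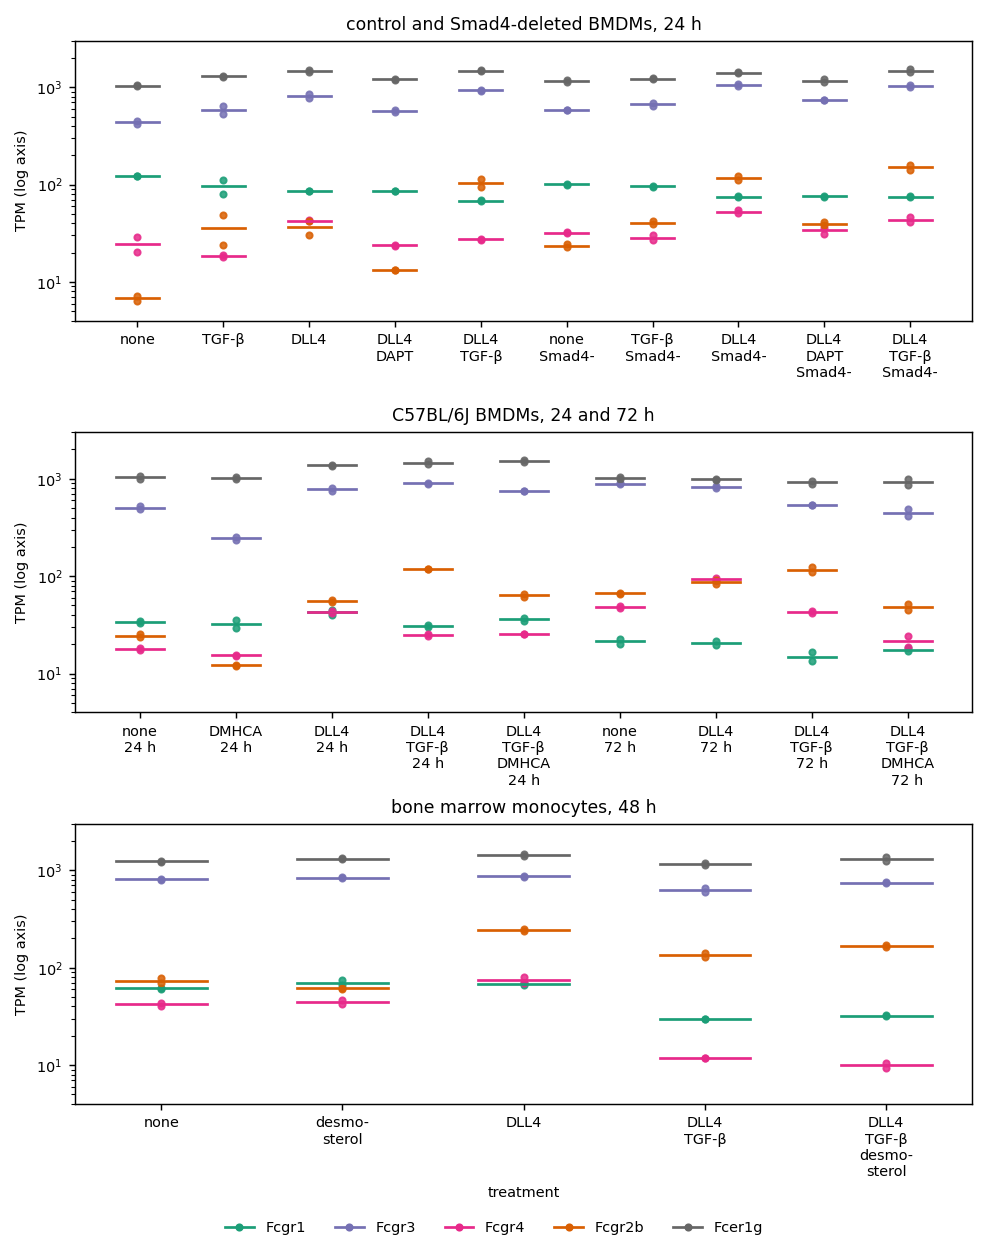
TPM (log axis) of the 5 genes in each library of the 3 culture experiments with added signals (points, with a bar at the group mean), by treatment and time, with Smad4-deleted cells marked Smad4-. Fcgr2b is 6.43 to 7.17 TPM in untreated control BMDMs and 93.5 to 113 TPM with DLL4 and TGF-beta, while Fcer1g stays between 863 and 1567 TPM throughout.

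With DLL4 for 24 or 48 h, Fcgr3 and Fcgr1 changed less than Fcgr2b. Fcgr4 did so too, except in C57BL/6J BMDMs, where its difference was 1.21 beside 1.15 for Fcgr2b. Fcgr4 was 17.6 and 18.3 TPM in untreated C57BL/6J BMDMs and 42.0 and 43.6 TPM with DLL4 at 24 h (1.21 ± 0.09, adjusted p = 3.2e-07), a called rise. It was 29.1 and 20.5 against 42.0 and 43.0 TPM in control BMDMs (0.77 ± 0.12; 1.02 without the first untreated library) and 40.4 and 43.9 against 69.2 and 79.9 TPM in bone marrow monocytes (0.81 ± 0.08), both under 2-fold. Even so, these Fcgr4 levels stayed below the 152 TPM of the lowest repopulating liver macrophage library of the first table. Fcgr3 was 454 and 417 against 771 and 844 TPM in control BMDMs (0.89 ± 0.08) and 484 and 525 against 757 and 799 TPM in C57BL/6J BMDMs (0.62 ± 0.07). Fcgr1 was lower with DLL4 in control BMDMs, at 85.6 and 86.3 against 124 and 123 TPM (-0.52 ± 0.10), and higher in C57BL/6J BMDMs, at 40.2 and 45.4 against 32.9 and 34.8 TPM (0.33 ± 0.11). Fcer1g was higher with DLL4 by 0.22 to 0.49 in these 4 comparisons, and no difference named here without a call reached 2-fold.

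**Figure D5:**
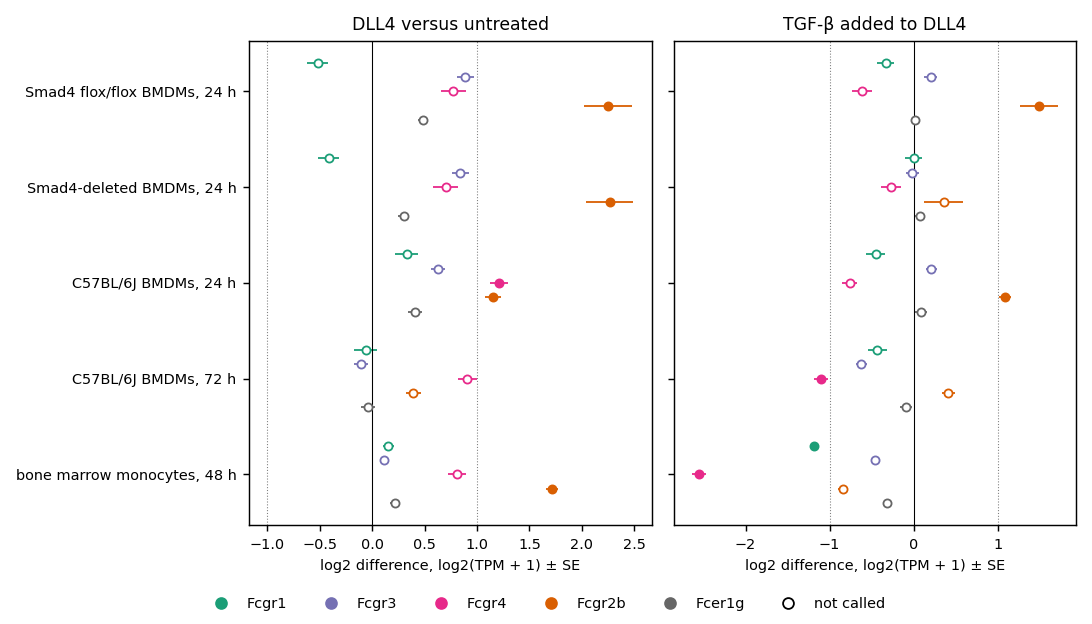
Log2 difference (log2(TPM + 1), ± SE) of the 5 genes for DLL4 against untreated cells and for TGF-beta added to DLL4 in 5 cultures, filled where called and open where not, with dotted lines at 2-fold. For TGF-beta added to DLL4, Fcgr2b lies at 1.49 in control BMDMs and at -0.84 in bone marrow monocytes, and Fcgr4 lies below 0 in all 5 cultures.

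TGF-beta raised Fcgr2b in control BMDMs and did so less in Smad4-deleted ones. Alone, it took Fcgr2b from 7.17 and 6.43 to 23.7 and 48.7 TPM in control cells (2.17 ± 0.23, adjusted p = 4.2e-06; 4.17% called). Smad4-deleted cells went from 24.3 and 22.8 to 42.0 and 39.1 TPM (0.76 ± 0.23, adjusted p = 0.072). No one of the 5 genes was called there (0 by limma-voom, 2 at an unadjusted p under 0.05; 0.545% called). The responses differed by -1.41 ± 0.32 (adjusted p = 0.016; 1.2% called). With no filter on low values the adjusted p was 0.10, and the call was also lost without the second untreated control library (-1.34, adjusted p = 0.066), without the first untreated Smad4-deleted library (-1.36, 0.066) or without the second TGF-beta-treated Smad4-deleted library (-1.36, 0.065). Without the second TGF-beta-treated control library the difference was -0.91, under 2-fold.

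Untreated, the genotypes already differed: Fcgr2b was 1.65 ± 0.23 higher in Smad4-deleted BMDMs (adjusted p = 0.00024; 1.13% called), so the 2 responses started from levels over 3-fold apart (a ratio of 3.15 on this scale). Fcgr2b was the 1 gene of the 5 called. Fcgr3 was 589 and 577 against 454 and 417 TPM (0.42 ± 0.08) and Fcgr1 was 102 and 99.3 against 124 and 123 TPM (-0.29 ± 0.10).

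Added to DLL4, TGF-beta took Fcgr2b in control BMDMs from 30.6 and 42.6 to 93.5 and 113 TPM (1.49 ± 0.23, adjusted p = 0.00011; 6.66% called). In Smad4-deleted BMDMs it was 110 and 124 TPM with DLL4 and 157 and 142 TPM with both (0.35 ± 0.23, adjusted p = 0.39). There none of the 5 genes was called (0 by limma-voom, 1 at an unadjusted p under 0.05; 0.799% called). The difference between these responses, added after the data were seen, was -1.13 ± 0.32 (adjusted p = 0.027; 2.23% called). The call was lost with no filter on low values (adjusted p = 0.126), and without the first DLL4 control library (-0.90), the second control library with both ligands (-0.99), either DLL4 Smad4-deleted library (-1.22 and -1.05) or the second Smad4-deleted library with both ligands (-1.06).

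For Fcgr2b the same addition had the opposite sign only in bone marrow monocytes, a difference between experiments that was not tested. In C57BL/6J BMDMs at 24 h Fcgr2b went from 54.7 and 56.8 TPM with DLL4 to 119 and 120 TPM with both (1.09 ± 0.07, adjusted p = 1e-07; 3.8% called). In those at 72 h Fcgr2b went from 91.8 and 83.3 to 111 and 123 TPM (0.41 ± 0.07, adjusted p = 0.00067), under 2-fold. In bone marrow monocytes it was 239 and 249 TPM with DLL4 and 141 and 130 TPM with both (-0.84 ± 0.06, adjusted p = 2e-06), lower without overlap and under 2-fold. Fcgr4 was lower with TGF-beta in every culture. It went from 69.2 and 79.9 to 11.8 and 12.0 TPM in bone marrow monocytes (-2.55 ± 0.08, adjusted p = 1.5e-08), where Fcgr1 also fell, from 70.2 and 67.0 to 29.8 and 29.6 TPM (-1.18 ± 0.06, adjusted p = 1.5e-07; 8.81% called). In C57BL/6J BMDMs at 72 h Fcgr4 fell from 95.2 and 89.6 to 43.5 and 41.4 TPM (-1.10 ± 0.09, adjusted p = 5e-07; 5.65% called). In the remaining 3 cultures its difference was -0.76 ± 0.09 (C57BL/6J at 24 h), -0.62 ± 0.12 (control) and -0.27 ± 0.12 (Smad4-deleted). Culture age, exposure time and starting cell differ between these experiments.

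At 72 h the DLL4 response was smaller for Fcgr2b. It was 66.6 and 66.3 TPM untreated and 91.8 and 83.3 TPM with DLL4 (0.39 ± 0.07, adjusted p = 0.0024), and Fcgr4 was 49.9 and 47.6 against 95.2 and 89.6 TPM (0.91 ± 0.09, adjusted p = 9.4e-06). None of the 5 genes was called (0 by limma-voom, 2 at an unadjusted p under 0.05; 1.73% called). Both genes also differed between the untreated sets of the 2 times, which were cultured for 4 and 6 days and are separate sets, so that time and set cannot be told apart. Untreated Fcgr2b was 23.5 and 25.6 TPM at 24 h and 66.6 and 66.3 TPM at 72 h (1.40 ± 0.07, adjusted p = 2.4e-09) and Fcgr4 was 17.6 and 18.3 TPM and 49.9 and 47.6 TPM (1.39 ± 0.09, adjusted p = 1.4e-08), where 13.8% of genes were called. Fcgr3 was higher by 0.82 ± 0.07, under 2-fold, and was called by limma-voom (1.02). The DLL4 response at 72 h minus that at 24 h, added after the data were seen, was -0.76 ± 0.10 for Fcgr2b (adjusted p = 0.00038), -0.73 ± 0.09 for Fcgr3 and -0.44 ± 0.09 for Fcer1g. None reached 2-fold (0 of 5 called, 0 by limma-voom, 5 at an unadjusted p under 0.05; 1.67% called). For TGF-beta added to DLL4 the same difference was -0.83 ± 0.09 for Fcgr3 (adjusted p = 3.1e-05) and -0.67 ± 0.10 for Fcgr2b (0 called, 0 by limma-voom, 3 at an unadjusted p under 0.05; 5.26% called). At 72 h, that is, Fcgr3 was 536 and 533 TPM with both ligands against 837 and 811 TPM with DLL4, and at 24 h 886 and 909 against 757 and 799 TPM.

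The sterol ligands were tested alone and on top of DLL4 with TGF-beta. DMHCA alone lowered Fcgr3 in C57BL/6J BMDMs at 24 h, from 484 and 525 to 253 and 237 TPM (-1.04 ± 0.07, adjusted p = 5.2e-08; 5.43% called). This call sat at the 2-fold line: the difference was -0.98 without the second untreated library, -0.99 without the second DMHCA library and -0.94 after quantile normalization. Fcgr2b was 12.0 and 12.2 TPM against 23.5 and 25.6 TPM untreated (-0.96 ± 0.07, adjusted p = 3.1e-07) and did meet 2-fold with a pseudocount of 0.25 (-1.004), after quantile normalization (-1.04) and by limma-voom (-1.12). Fcgr4 differed by -0.21, Fcgr1 by -0.06 and Fcer1g by -0.03. Added to DLL4 with TGF-beta, DMHCA was followed at 24 h by Fcgr2b at 61.6 and 65.3 TPM against 119 and 120 TPM (-0.90 ± 0.07; 0 of 5 called, 0 by limma-voom, 2 at an unadjusted p under 0.05; 1.23% called). At 72 h Fcgr2b fell from 111 and 123 to 51.2 and 44.6 TPM (-1.27 ± 0.07, adjusted p = 5.9e-08; 5.21% called), and Fcgr4 was 18.8 and 24.3 TPM against 43.5 and 41.4 TPM (-0.96 ± 0.09; -1.14 without the second library with DMHCA).

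Desmosterol, given for 48 h to bone marrow monocytes, was not followed by a call of any of the 5 genes. Alone, it left Fcgr2b at 60.2 and 62.6 TPM against 77.6 and 69.4 TPM (-0.25 ± 0.06, adjusted p = 0.024; 0 called, 0 by limma-voom, 2 at an unadjusted p under 0.05; 0.244% called). On top of DLL4 with TGF-beta, Fcgr2b was 165 and 170 TPM against 141 and 130 TPM (0.30 ± 0.06, adjusted p = 0.018) and Fcgr3 was 741 and 757 against 662 and 606 TPM (0.24 ± 0.04, adjusted p = 0.0098). Neither reached 2-fold (0 called, 0 by limma-voom, 4 at an unadjusted p under 0.05; 0.205% called). DMHCA and desmosterol were given to different cells for different times, and their values are side by side only.

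Blocking Notch during refilling gave differences under 2-fold. With LY411575 Fcgr4 was 232, 228 and 239 TPM against 354 and 365 TPM in controls (-0.62 ± 0.07, adjusted p = 5.3e-05) and Fcgr2b was 181, 194 and 203 TPM against 292 and 279 TPM (-0.57 ± 0.12, adjusted p = 0.0041). Fcer1g was 1243, 1232 and 1398 TPM against 1788 and 1668 TPM (-0.42 ± 0.08), Fcgr3 was 378, 365 and 411 TPM against 479 and 456 TPM (-0.28 ± 0.09), and Fcgr1 was higher, at 258, 261 and 265 TPM against 218 and 227 TPM (0.23 ± 0.07). No group overlapped its control and all 5 adjusted p-values were under 0.05, but the share of all genes that did the same was not counted. None of the 5 genes was called at 2-fold (0 by limma-voom; 6.38% called). With the DLL1 and DLL4 antibodies Fcgr1 was 213, 222, 245 and 223 TPM against 157 and 172 TPM (0.45 ± 0.06, adjusted p = 0.00091). Fcgr4 was 333, 343, 326 and 385 TPM against 408 and 386 TPM (-0.20 ± 0.07, adjusted p = 0.072), and Fcgr2b was 209 to 287 TPM against 276 and 293 TPM, with overlap (0 called, 0 by limma-voom, 4 at an unadjusted p under 0.05; 2.07% called).

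The 2 blocks differed for Fcgr4 by -0.43 ± 0.09 (adjusted p = 0.014), under 2-fold, in a comparison where sex also differed (0 of 5 called, 0 by limma-voom, 3 at an unadjusted p under 0.05; 5.38% called). The log2 ratio of activating to inhibitory transcript was 1.88 ± 0.05 (SD, n = 2) in LY411575 controls and 2.19 ± 0.06 (SD, n = 3) with LY411575, and 1.90 ± 0.04 (n = 2) and 2.20 ± 0.18 (n = 4) in the antibody experiment. Of the other Fc and IgG-handling receptors, 2 of 5 tested were lower with LY411575, where 6.38% of all genes were called, among them Fcgrt (-2.36 ± 0.07), and of 14 inhibitory genes 3 were lower, led by Siglece (-2.51 ± 0.17). Monocyte markers also differed between these groups. The 9 nonclassical monocyte markers summed to 450 to 464 TPM with LY411575 and 1161 to 1195 TPM in its controls, and to 743 to 982 TPM with the antibodies and 1484 to 1728 TPM in theirs. The 8 classical markers summed to 4197 to 4350 TPM with LY411575 and 1579 to 1584 TPM in its controls. Fcgr4 is known as a receptor of nonclassical monocytes, and the part of monocyte composition in its level was not tested.

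Signalling genes were also called with DLL4 in bone marrow monocytes. Of 22 genes of activating Fc receptor signalling 9 were higher and 1 was lower there, where 19.5% of all genes were called (median 0.55 against -0.05 over all genes), among them the Src-family kinase Fgr (2.97 ± 0.07) and the ubiquitin ligase Cbl (1.51 ± 0.06), with Lat2 lower (-1.47 ± 0.06). Of 14 tested inhibitory genes 5 were higher and 2 were lower, led by the ITIM receptor Pilra (3.96 ± 0.07). In C57BL/6J BMDMs at 24 h 0 of 22 activating and 3 of 14 inhibitory genes were called, all 3 higher, where 2.75% of all genes were called. Interferon response genes, listed because Fcgr1 and Fcgr4 are known interferon targets, were higher with DLL4 in monocytes for 15 of 17 tested (median 2.64), with Gbp2 at 5.54 and Gbp5 at 4.61. With TGF-beta on top of DLL4, where 8.81% of all genes were called, 9 of 17 were lower and 0 were higher. In that culture Fcgr1 differed by 0.15 ± 0.06 with DLL4 and fell by 1.18 with TGF-beta on top. Neutrophil markers summed to 611 to 637 TPM untreated and 157 to 172 TPM with DLL4 in the same cultures, and nonclassical monocyte markers to 70.5 to 76.2 and 676 to 693 TPM. Their part in the receptor values was not tested.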

How the data were processed

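RNA was measured by poly(A)-selected, strand-marked RNA-seq per the labels' protocols. The deposited values are TPM per gene, made by the authors with STAR and HOMER on mm10 per the submitters' processing notes. Which versions were used is not given in the sources used here. TPM summed to 510684 to 574479 per library over the 24940 genes listed. Low values were whole multiples of 1 read (100% whole within 0.1 reads, over values of up to 20 reads), which gave 7830287 to 27776403 reads per library. Intervals for single values were not used, since every comparison rests on replicate libraries.

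Each table was fitted on its own with limma 3.58.1 (R 4.3.3) on log2(TPM + 1), with a trend in the variance, all groups of the table in 1 model, genes of at least 4 TPM in at least 2 libraries, and Benjamini-Hochberg adjustment over all genes tested. A gene was called at an adjusted p under 0.05 and a difference of at least 2-fold. The log scale understates the change of low genes. The exact permutation test used scipy 1.17.1. The fits were tested on simulated data. Alternatives were a pseudocount of 0.25, no filter, quantile normalization, limma-voom on recovered reads, a replicate block and leaving out each library.

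The 5 genes and the gene lists were chosen with earlier results of these data known. Named in the text are the 5 genes, up to 3 called genes per direction in a list, and the 3 genes most like each of the 5 by Pearson r. Groups follow sample titles. The labels do not say whether numbers or tags shared by groups mark a shared animal or batch. The result of 1 further promoter motif is not reported here. Coding sequences are from GENCODE M21 and promoters from RefSeq, in which all 5 genes matched. Protein sequences were not used here.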

Additional observations from a re-analysis of the deposited data

Results flagged for a closer look

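In these results the response of 1 group differed from that of another. The response of Fcgr2b to TGF-beta was smaller in Smad4-deleted than in control BMDMs, by -1.41 without DLL4 and by -1.13 with it. In C57BL/6J BMDMs the DLL4 response was lower at 72 h than at 24 h for Fcgr2b (-0.76), Fcgr3 (-0.73) and Fcer1g (-0.44), and the response to TGF-beta on top of DLL4 was lower for Fcgr2b (-0.67) and Fcgr3 (-0.83). LY411575 and the antibodies to DLL1 and DLL4 differed in their Fcgr4 response by -0.43. Each of these had an adjusted p under 0.05 from limma for the difference itself. Only the Fcgr2b differences between genotypes reached 2-fold.

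Other pairs of experiments had opposite directions with no overlap between treated and untreated libraries. For DLL4, Fcgr1 differed by 0.33 in C57BL/6J BMDMs at 24 h and by -0.52 in control BMDMs, and Fcgr3 by 0.89 in control BMDMs and by -0.11 in C57BL/6J BMDMs at 72 h. For TGF-beta on top of DLL4, Fcgr2b differed by 1.49 in control BMDMs and by -0.84 in bone marrow monocytes, and Fcer1g by 0.084 in C57BL/6J BMDMs at 24 h and by -0.32 in bone marrow monocytes. These 4 differences between tables were not tested. Fcgr3 differed by 0.21 at 24 h and by -0.62 at 72 h in C57BL/6J BMDMs, which is the tested difference of -0.83 above. No library of the groups of 4 stood apart in any of the 5 genes or the log2 ratio (12 Dixon tests, of which chance flags about 1 in 20).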

How the results depend on the processing

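How many of the 5 genes were called in a comparison stayed within 1.5 times in all 46 comparisons after quantile normalization. With no filter on low values the count went from 1 to 0 for STAB2-low against STAB2-high cells and for both differences between genotypes (TGF-beta, and TGF-beta added to DLL4). With a pseudocount of 0.25 and by limma-voom it went from 1 to 2 for DMHCA at 24 h. Leaving out 1 library moved the count by over 1.5 times in 14 fits downwards and 4 upwards, and in 212 fits it did not. It ranged from 0 to 1 for 24 against 12 h, for 336 h against Kupffer cells and for both differences between genotypes, from 0 to 2 for DMHCA at 24 h, and from 1 to 2 for 168 against 72 h, DLL4 in control BMDMs and DMHCA at 72 h. No called value changed sign.

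The replicate block changed no call of the 5 genes in the 35 comparisons where it could be fitted. For DMHCA at 24 h, Fcgr3 was -1.04 with the replicate block as without it. Deviations of same-numbered libraries correlated from -0.26 to 0.34 over 29 comparisons. Numbers were those of the titles, and in the antibody experiment most of them differ from the numbers in the column names. Numbers swapped in 1 group, a crossed replicate block chosen after seeing the data, gave 427 genes in place of 428 for TGF-beta in control BMDMs and 570, within 1.5 times of the count without it, for DMHCA at 72 h.

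Over all genes, counts moved by over 1.5 times in 8 of 46 comparisons with no filter, 7 by limma-voom, 3 after quantile normalization, 2 with a pseudocount of 0.25 and 1 of 35 with the replicate block. For STAB2-intermediate against STAB2-high cells the count was 1, and 5 with no filter, 11 by limma-voom, 0 after quantile normalization, 2 with a pseudocount of 0.25 and 27 with the replicate block. With no filter it went from 96 to 14 for Smad4-deleted against control Kupffer cells, from 44 to 19 for Nr1h3 knockout BMDMs, from 5 to 2 for TIM4-negative against TIM4-positive Smad4-deleted cells, from 0 to 3 for the difference between genotypes in the DLL4 response, from 205 to 120 for the antibodies, from 532 to 301 for LY411575 minus antibodies and from 25 to 14 for desmosterol. By limma-voom it went from 44 to 76 for Nr1h3 knockout BMDMs, from 5 to 2 for TIM4-negative against TIM4-positive Smad4-deleted cells, from 56 to 94 for TGF-beta and from 116 to 175 for deletion alone in Smad4-deleted BMDMs, from 205 to 354 for the antibodies and from 21 to 41 for desmosterol on DLL4 with TGF-beta. After quantile normalization it went from 48 to 75 for 72 against 48 h and from 44 to 22 for Nr1h3 knockout BMDMs, and with a pseudocount of 0.25 from 8 to 3 for 336 against 168 h. By limma-voom the share of calls that were higher in Kupffer cells than in monocytes was 66.7% in place of 54.6%, with the median of all genes at 0.22 in place of -0.06. With 2 to 4 libraries a group, differences under 2-fold are the least certain. The cause of these changes was not tested.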
